A study of Mus musculus with 8 samples.

Results

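The comparison set cells carrying the full-length fusion NUP98-HOXA9 against cells carrying an empty vector. The members were the 4 arrays, of 8 in the series, whose titles name these constructs, with 2 arrays of each and the title numbers 1 and 2 taken as pairs. All cells came from C57BL/6 mice. The other 4 arrays carry the deletion mutants delFG1 and delFG2 of the fusion, 2 arrays each, and served to estimate the spread and as a side-by-side reference. Of 28853 probe sets in the deposited table, the 21789 that carry 1 gene symbol were tested, which cover 19938 genes. The cell type, the species of the fusion cDNA, the residues removed in the mutants, the array model and what the numbers stand for are not given in the sources used. The labels do not say whether the 2 arrays of a group stem from different cultures or animals; a p-value therefore covers the variation among these samples alone, and that variation could be technical.

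NUP98-HOXA9 is a leukaemia fusion in which the FG-repeat part of the nucleoporin NUP98 is joined to the homeodomain part of HOXA9. HOXA proteins are transcription factors that are abundant in blood stem and progenitor cells and are shut down as myeloid cells mature. They bind DNA together with PBX and MEIS proteins, and MLL, which the series title names, is a histone methyltransferase that maintains HOXA transcription.

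Levels are given as log2(intensity + 1) and differences as full length minus empty vector on that scale, with the standard error (SE) of the limma fit where one is given. A gene was called where its adjusted p (limma, Benjamini-Hochberg over all tested probe sets) lay under 0.05 in the fit with the replicate number as a block. Median intensity of the arrays lay between 80.7 and 83.2, and over all genes the r between the 2 arrays of a group was 0.995 for the empty vector and 0.996 for the full-length fusion. With the pairing, 414 genes rose, 2.08% of those tested, and 915 fell, 4.59%. Without the pairing 21 rose (0.105%) and 5 fell (0.0251%), all of which were also called with it, while 2078 probe sets then had an unadjusted p under 0.05. The counts also depend on single arrays. Without the full-length array numbered 1 they were 95 rises and 279 falls, and without the one numbered 2 they were 84 and 287; without the empty vector array numbered 1 there were 244 rises, and without the one numbered 2 there were 802. Leaving out either full-length array also took the call from some of the 182 named probe sets. No named probe set turned its direction while called, and directions of uncalled ones were not counted. A rise or fall described below rests on the pairing unless it is said to have passed in both fits. Each count of list members below is to be read beside the shares of all genes, 2.08% higher and 4.59% lower.

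The choice of number moved many genes as well. Across all 8 arrays 1351 genes were higher in arrays numbered 2 (6.78%) and 885 were lower (4.44%). Among the genes that fell with the fusion, 607 of 915 (66.3%) were higher in number 2, and 5 were lower. Among those that rose, 105 of 414 (25.4%) were lower in number 2 and 7 were higher. What the numbers stand for was not tested.

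Promoter windows of a few members, mostly picked for a motif in them, are shown first. Each is the 250 bases before the start in RefSeq's GRCm38.p6 annotation, 5′ to 3′ on the gene's strand. Hoxa2 and Ppbp are shown because their windows hold the HOX-PBX motif TGATTNAT on either strand, Hoxa9 because it is the fusion's own HOX gene, and Csn2 because it rose most and its window holds the STAT motif TTCNNNGAA. Capitals mark the match.
Hoxa2 (chr6:52164832-52165081, - strand): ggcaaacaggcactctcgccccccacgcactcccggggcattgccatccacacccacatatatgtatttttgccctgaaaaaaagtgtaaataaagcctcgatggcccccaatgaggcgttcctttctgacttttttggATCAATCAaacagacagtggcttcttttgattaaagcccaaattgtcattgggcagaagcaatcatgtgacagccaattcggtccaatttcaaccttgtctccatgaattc
Hoxa9 (chr6:52227371-52227620, - strand): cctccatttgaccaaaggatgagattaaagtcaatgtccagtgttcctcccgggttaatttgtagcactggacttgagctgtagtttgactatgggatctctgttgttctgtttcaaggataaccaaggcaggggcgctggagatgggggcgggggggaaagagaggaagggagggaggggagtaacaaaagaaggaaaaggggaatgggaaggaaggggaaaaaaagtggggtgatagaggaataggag
Ppbp (chr5:90768268-90768517, + strand): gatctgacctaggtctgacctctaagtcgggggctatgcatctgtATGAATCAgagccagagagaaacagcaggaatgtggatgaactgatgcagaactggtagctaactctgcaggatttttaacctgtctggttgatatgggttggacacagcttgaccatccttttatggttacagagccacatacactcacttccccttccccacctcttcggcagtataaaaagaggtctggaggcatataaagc
Csn2 (chr5:87699426-87699675, - strand): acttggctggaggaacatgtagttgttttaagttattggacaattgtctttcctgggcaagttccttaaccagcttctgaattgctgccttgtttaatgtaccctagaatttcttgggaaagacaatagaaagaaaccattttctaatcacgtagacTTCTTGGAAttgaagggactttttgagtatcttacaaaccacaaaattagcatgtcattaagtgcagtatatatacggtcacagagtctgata
The HOX-PBX motif was present in 2.82% of 32851 mouse promoter windows of this length. It was in the windows of 0 of 16 named rises and 2 of 18 named falls, Ppbp and Lipf, and in that of Hoxa2, where it begins 111 bases before the start. The STAT motif was present in 7.02% of all windows and begins 93 bases before the start of Csn2; 1 of 16 rises (Csn2) and 1 of 18 falls (Pla2g7) held it. The motif TTTATNG, for posterior HOX proteins, was present in 9.81% of windows, in 1 of 16 rises (H2-Ob) and in 2 of 18 falls (Lipf and Ppbp). TTTATNG and TTCNNNGAA were chosen after the expression values were seen, each was searched on both strands, and a match describes letters in a window, not a bound site.

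Genes of the Hoxa cluster rose together, and those that rose most lie side by side. Of 10 measured Hoxa genes 7 were called higher and 0 lower, against 2.08% and 4.59% of all genes. Their median difference was 0.99, beside 0.02 over all genes. The other HOX clusters and the HOX partners are described after the Hoxa members.

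Hoxa9, the HOX partner of the fusion, lay at 7.56 and 7.34 in the 2 empty vector arrays and at 9.41 and 9.43 in the full-length arrays. The groups did not overlap, and the difference of 1.97 ± 0.13 (SE) is 3.92-fold, with adjusted p = 1.7e-05. Whether the Hoxa9 probe set also reads the fusion transcript was not tested. Nup98, the other partner, lay at 11.09 and 10.82 without the fusion and at 11.11 and 10.99 with it. Its difference of 0.10 did not pass (adjusted p = 0.53), and its arrays overlap.

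Hoxa6 lay at 6.51 and 6.28 in the empty vector arrays and at 8.44 and 8.87 in the full-length arrays, a rise of 2.26 ± 0.16 (4.79-fold, adjusted p = 3.7e-05). Hoxa5 went from 5.64 and 5.46 to 7.60 and 7.82, a rise of 2.16. Hoxa7 went from 6.79 and 6.93 to 9.01 and 9.0, a rise of 2.15. These genes and Hoxa9 are neighbours in the RefSeq order of tested genes and form an unbroken run of 4 rises of 1.97 to 2.26. All of them, and Hoxa3, passed in both fits.

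On either side of that run the differences were smaller. Hoxa4, which lies between Hoxa5 and Hoxa3, lay at 6.76 and 6.82 without and 6.83 and 7.01 with the fusion, a difference of 0.13 (adjusted p = 0.59). Hoxa3 rose by 1.36, from 5.51 and 5.58 to 6.72 and 7.08. Hoxa10 rose by 0.63 and Hoxa2 by 0.45, both with the pairing alone. The differences of Hoxa11 (-0.01) and Hoxa13 (0.06), at the posterior end of the cluster, did not pass.

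The other HOX clusters moved less. Of 27 measured Hoxb, Hoxc and Hoxd genes, 5 rose and 0 fell, with a median of 0.10. Hoxc6 lay at 5.23 and 5.35 without the fusion and at 6.45 and 6.25 with it, a rise of 1.06 that passed in both fits. Hoxb5 went from 5.08 and 5.22 to 5.88 and 5.92 (0.76, both fits). Hoxc5, Hoxb4 and Hoxb3 rose by 0.62, 0.56 and 0.44 with the pairing alone.

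Among HOX partners of the TALE class, 2 of 10 measured genes rose and 0 fell. Pbx3, a DNA-binding partner of HOX proteins, lay at 8.75 and 8.65 without and at 10.63 and 10.24 with the fusion, a rise of 1.74 ± 0.11 (3.34-fold, adjusted p = 1.5e-05, both fits). Meis1, the partner that accompanies Hoxa9 in many myeloid leukaemias, went from 7.02 and 6.53 to 7.84 and 7.30, a rise of 0.80 with the pairing alone. Eya1, a transcriptional coactivator and phosphatase, went from 6.43 and 6.76 to 9.06 and 8.98. Its rise of 2.43 ± 0.12 (5.37-fold, adjusted p = 5.2e-06) passed in both fits, while the other 10 of 11 measured genes of its list (other Eya genes, their homeodomain partners and the Dach factors) were not called. Mef2c, a transcription factor of progenitors and lymphoid cells, went from 8.55 and 8.09 to 9.44 and 9.36, a rise of 1.08 with the pairing alone, and Mef2a fell by 0.72.

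**Figure D1:**
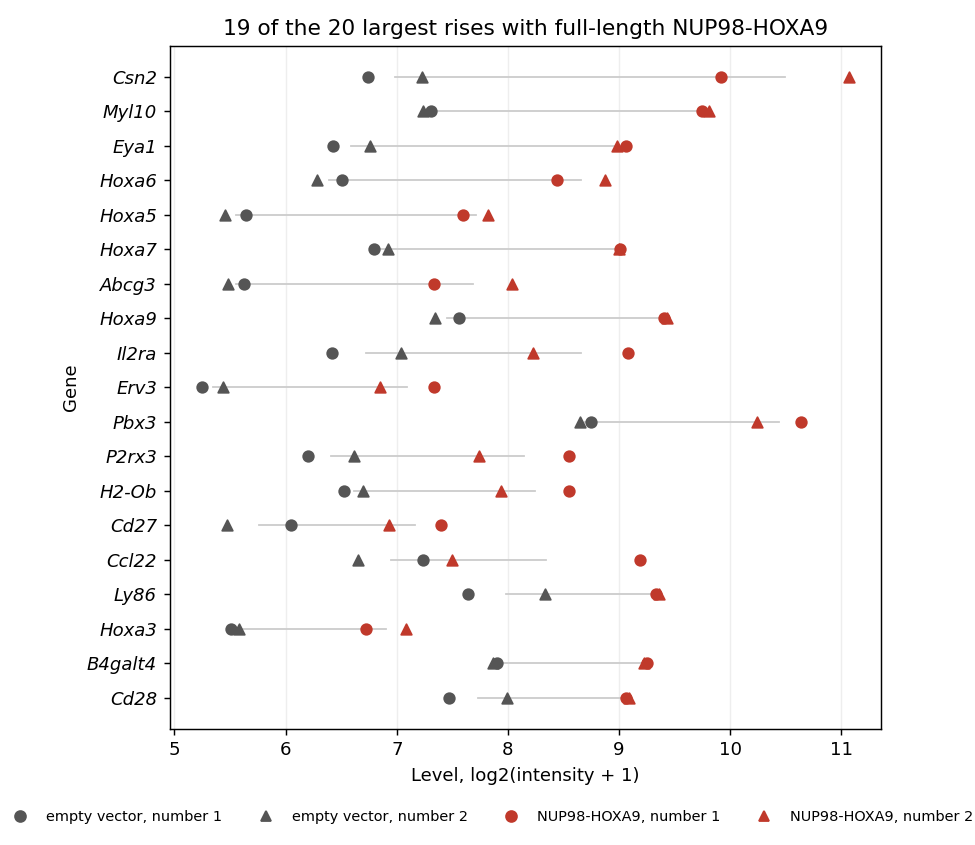
Levels of 19 of the 20 largest rises, log2(intensity + 1), in each empty vector (grey) and full-length (red) array, with circles for number 1, triangles for number 2 and a line joining the group means. Genes are ordered by their difference, from Cd28 (1.34) to Csn2 (3.51); the groups do not overlap for any of them, as the rule that chose them required.

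Outside the homeobox genes the largest rise was that of Csn2, which encodes beta-casein, a milk protein whose gene is a classic STAT5 target in the mammary gland. It lay at 6.74 and 7.22 in the empty vector arrays and at 9.91 and 11.06 in the full-length arrays. Both full-length arrays lay above both empty vector arrays, with the array numbered 2 the higher in each group. The rise was 3.51 ± 0.21 (11.4-fold, adjusted p = 1.5e-05) and passed in both fits. In the casein cluster 3 of 6 measured genes rose and 0 fell: Csn1s1, an alpha-casein, went from 4.72 and 4.88 to 5.84 and 5.70 (0.97, both fits), and Csn1s2b rose by 0.25. Of 20 JAK, STAT and SOCS genes, 2 rose and 1 fell, the largest being Stat4 (0.65).

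Myl10, a myosin regulatory light chain, lay at 7.31 and 7.24 without and at 9.75 and 9.81 with the fusion, a rise of 2.51 (5.69-fold). Abcg3, a transporter of the ATP-binding cassette family, went from 5.62 and 5.48 to 7.33 and 8.04 (2.13). Both passed in both fits, as did Erv3 (1.75), the galactosyltransferase B4galt4 (1.35), Tifab (1.25), a regulator of TRAF6 signalling, the phosphatase Ppm1e (1.01) and the receptor tyrosine kinase Epha3 (0.72). Tet1, which oxidises methylated cytosine, went from 5.98 and 5.77 to 6.89 and 6.81 at the probe set that passed in both fits (0.97). Of the 3 probe sets of Tet1 it alone did so, and it is not the brightest. P2rx3, an ATP-gated ion channel, went from 6.20 and 6.62 to 8.55 and 7.74 (1.73, pairing alone), whereas its second probe set differed by 0.01. The predicted gene Gm5662 rose by 0.63 in both fits.

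T and NK lymphoid genes were mostly uncalled: of 17 measured, 1 rose (Thy1, 0.59) and 0 fell, and Cd3g differed by 0.11 without passing. The 20 largest rises nevertheless held 3 surface receptors known from lymphocytes. Cd28, a costimulatory receptor of T cells, went from 7.47 and 7.99 to 9.06 and 9.09 (1.34, both fits). Il2ra, the alpha chain of the interleukin-2 receptor, went from 6.42 and 7.04 to 9.08 and 8.23 (1.93), and Cd27, a TNF-family receptor, from 6.05 and 5.48 to 7.40 and 6.93 (1.41), both with the pairing alone. Of 16 B lymphoid genes 0 rose and 3 fell, among them Cd22 (-0.62).

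MHC class II and dendritic cell genes gave 3 rises and 0 falls of 18 measured, with a median difference of 0.12. These were Ccr7 (1.05), a homing receptor, H2-Ab1 (0.74) and H2-DMa (0.62). Within numbers 1 and 2 the differences were 1.77 and 0.32 for Ccr7, 1.27 and 0.21 for H2-Ab1, and 0.70 and 0.53 for H2-DMa. Outside the list, H2-Ob, a subunit of the class II modulator H2-O, went from 6.53 and 6.70 to 8.55 and 7.93 (1.63). Ly86, which pairs with the receptor RP105, went from 7.64 and 8.33 to 9.33 and 9.36 (1.36). List medians were 0.27 within number 1 and -0.02 within number 2. These rises passed with the pairing alone.

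Chemokine genes gave 4 rises and 4 falls among 35 measured, against 2.08% and 4.59% of all genes. Ccl22, a ligand of CCR4, lay at 7.24 and 6.65 without and at 9.19 and 7.5 with the fusion (1.40), and Ccl17, which binds the same receptor, at 8.91 and 8.17 without and at 10.43 and 9.22 with it (1.28). Arrays numbered 1 were the higher in each group for both. The neutrophil receptor Cxcr2 fell by 1.09, the monocyte receptor Ccr1 by 0.72 and the chemokine Ccl6 by 0.49. Among 33 cytokines 3 rose, Il12a most (0.81), and 6 fell, led by Il6 (-1.32), Il1a (-1.24) and Il1rn (-0.69).

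Of 22 stem and progenitor genes 4 rose and 1 fell, against 2.08% and 4.59% of all genes, with a median of 0.11. Of the 22, 6 were lower in number 2 and 1 was higher; all 5 called members differed between the numbers, in the direction opposite to their call, and the part of this in the calls was not tested. Cd34, a surface marker of progenitors, went from 10.16 and 9.49 to 10.94 and 10.43 (0.86), and the array numbered 1 was the higher in each group. Msi2, an RNA-binding protein of stem cells, rose by 0.48. Nrp1 fell by 0.95. Of 40 myeloid and progenitor transcription factors 5 rose and 6 fell. Gfi1, a repressor needed for neutrophil development, rose by 0.81, and Mycn, Myc, Myb and Lmo2 rose by 0.50, 0.36, 0.32 and 0.29. Id3 fell by 0.83, Zeb2 by 0.69, Klf4, a monocyte factor, by 0.60, and Spi1, the gene of PU.1, by 0.24. All of these passed with the pairing alone.

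**Figure D2:**
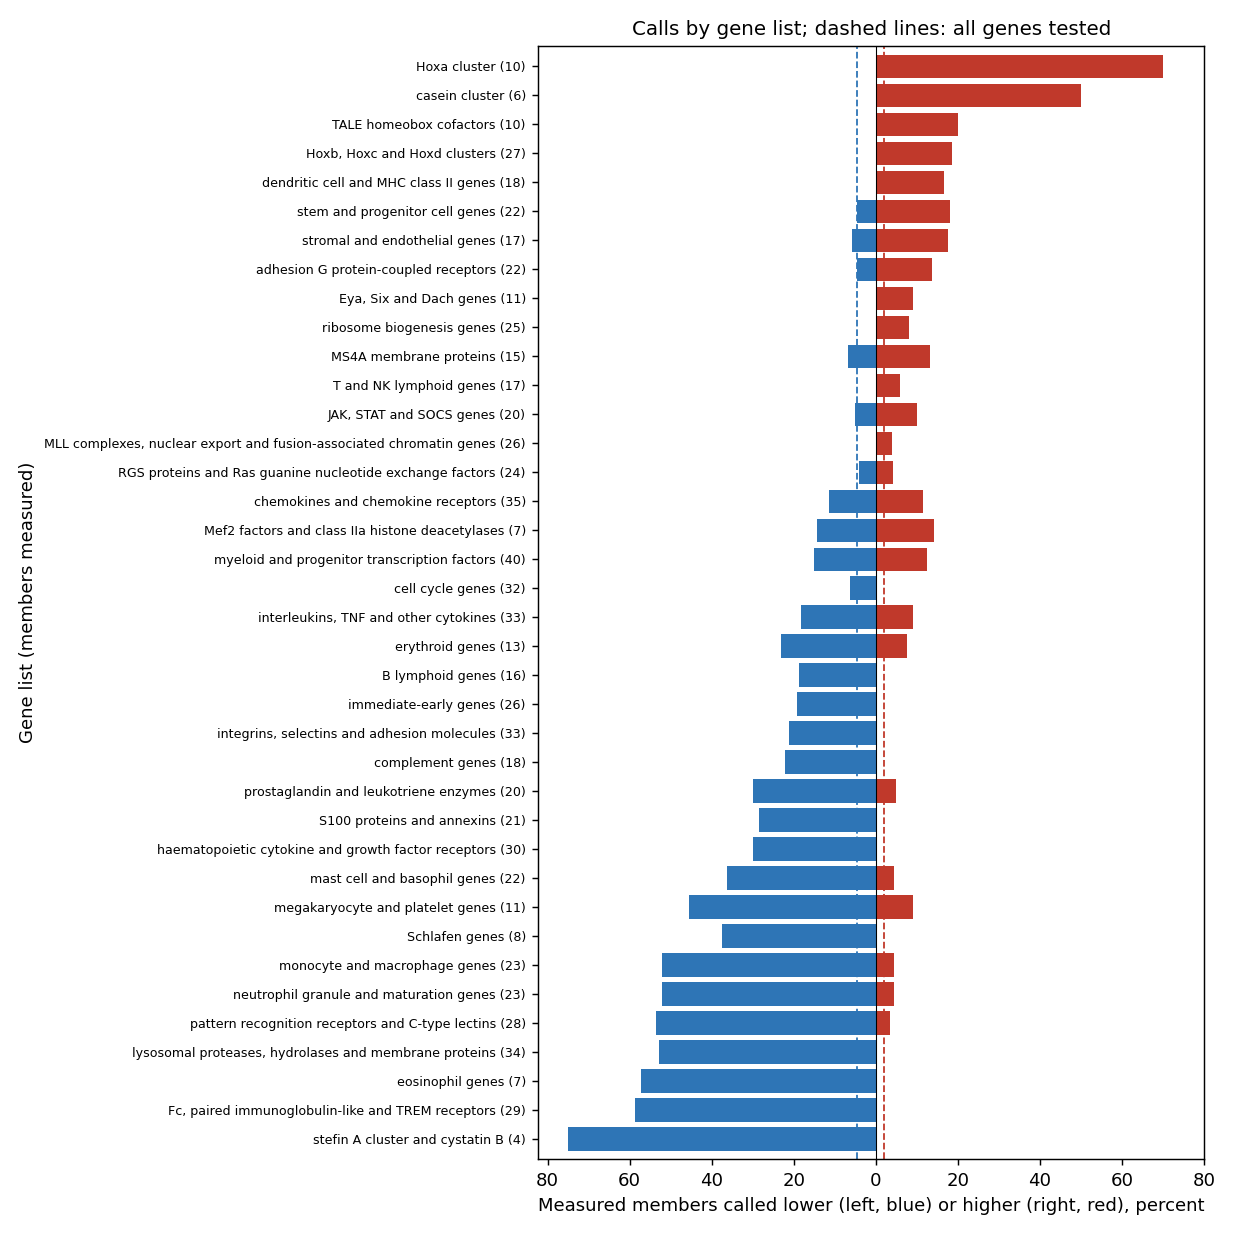
Percent of the measured members of each of 38 gene lists that were called lower (blue, left) or higher (red, right); the number measured stands after each name and dashed lines mark all genes tested (2.08% higher, 4.59% lower). The Hoxa and casein clusters lie at the top, and the stefin, Fc and TREM, eosinophil and lysosomal lists at the bottom.

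Many genes of maturing myeloid cells fell. Of 23 neutrophil genes 12 fell and 1 rose, of 23 monocyte and macrophage genes 12 fell and 1 rose, and of 7 eosinophil genes 4 fell, against 4.59% of all genes. The medians were -0.40, -0.28 and -0.46. All falls of these lists passed with the pairing alone. These lists also differ between the numbers, since 15, 12 and 4 of their members were higher in number 2, and the part of this in the falls was not tested. In bulk RNA, fewer cells of a type and less RNA per cell cannot be told apart.

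Mean levels of the neutrophil list were 11.29 and 11.65 in the empty vector arrays and 10.86 and 11.29 in the full-length arrays numbered 1 and 2. Within each number the full-length array was thus the lower, whereas across numbers the groups meet. Olfm4, a glycoprotein of neutrophil granules, lay at 10.65 and 11.22 without and at 8.90 and 9.97 with the fusion, a difference of -1.5 ± 0.12 (2.83-fold lower). Mmp8, neutrophil collagenase, went from 11.43 and 12.46 to 10.91 and 11.24 (-0.87), and the groups did not overlap. Itgam, the CD11b integrin chain, fell by 0.45. The later granule genes Ltf and Camp fell by 0.75 and 0.58. Early granule proteases did not follow, since Prtn3 rose by 0.24 and Elane differed by 0.14 without passing.

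Macrophage genes fell along the same pairs, with list means of 8.66 and 8.99 without and 8.42 and 8.59 with the fusion. Mrc1, the mannose receptor, lay at 10.91 and 11.15 without and at 9.48 and 10.27 with it (-1.15), and Msr1, a scavenger receptor, at 10.25 and 10.79 without and at 9.15 and 9.73 with it (-1.08). Ctss, a cathepsin, fell by 0.82 and Cd68 by 0.49. Ccr2, the receptor of inflammatory monocytes, was the member that rose (1.10). In the eosinophil list Ear6 fell by 0.87, and its level was also more than 1 log2 unit apart between the numbers, at 10.18 and 11.51 without and 9.36 and 10.60 with the fusion. Ear6 belongs to a family of near-identical ribonuclease genes, so its probe set may read several of them. Prg3, Prg2 and Epx, eosinophil granule genes, fell by 0.61, 0.54 and 0.46. They were higher in number 2 by 0.75, 0.71 and 0.69, more than they fell. For these genes and for Ear6 the arrays of the groups overlapped.

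Receptors by which myeloid cells sense their surroundings fell as well. Of 29 Fc, paired immunoglobulin-like and TREM receptors 17 fell and 0 rose, with 21 higher in number 2. Of 28 pattern recognition receptors and C-type lectins 15 fell and 1 rose, with 14 higher in number 2. Siglece, an inhibitory sialic acid receptor, lay at 9.94 and 10.45 without and at 8.33 and 9.35 with the fusion (-1.36). Fcer1a, the IgE receptor alpha chain, went from 7.77 and 8.35 to 6.41 and 7.07 (-1.31), and Cd300lf from 9.94 and 10.04 to 8.93 and 9.28 (-0.89). Groups of these genes did not overlap. The RNA-sensing receptors Tlr8 and Tlr7 fell by 1.28 and 0.98, and Ly96, the partner of TLR4, by 0.92.

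Lysosomal genes fell broadly, with 18 of 34 measured lower, 0 higher and a median of -0.25, and 14 were higher in number 2. Ctsk, a collagen-cleaving cathepsin, lay at 7.99 and 8.57 without and at 6.66 and 7.13 with the fusion, a difference of -1.38. Slc15a3, a lysosomal peptide transporter, went from 9.71 and 9.93 to 8.93 and 8.78 (-0.97) and passed in both fits. Ctsd, the main aspartic protease of the lysosome, went from 12.86 and 13.11 to 12.44 and 12.67 (-0.43, a 1.35-fold fall). Of 20 prostaglandin and leukotriene enzymes 6 fell and 1 rose. Pla2g7, which inactivates platelet-activating factor, went from 9.75 and 11.03 to 8.65 and 9.08 (-1.53), and Hpgds and Ptges, synthases of prostaglandins, fell by 0.68 and 0.75.

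**Figure D3:**
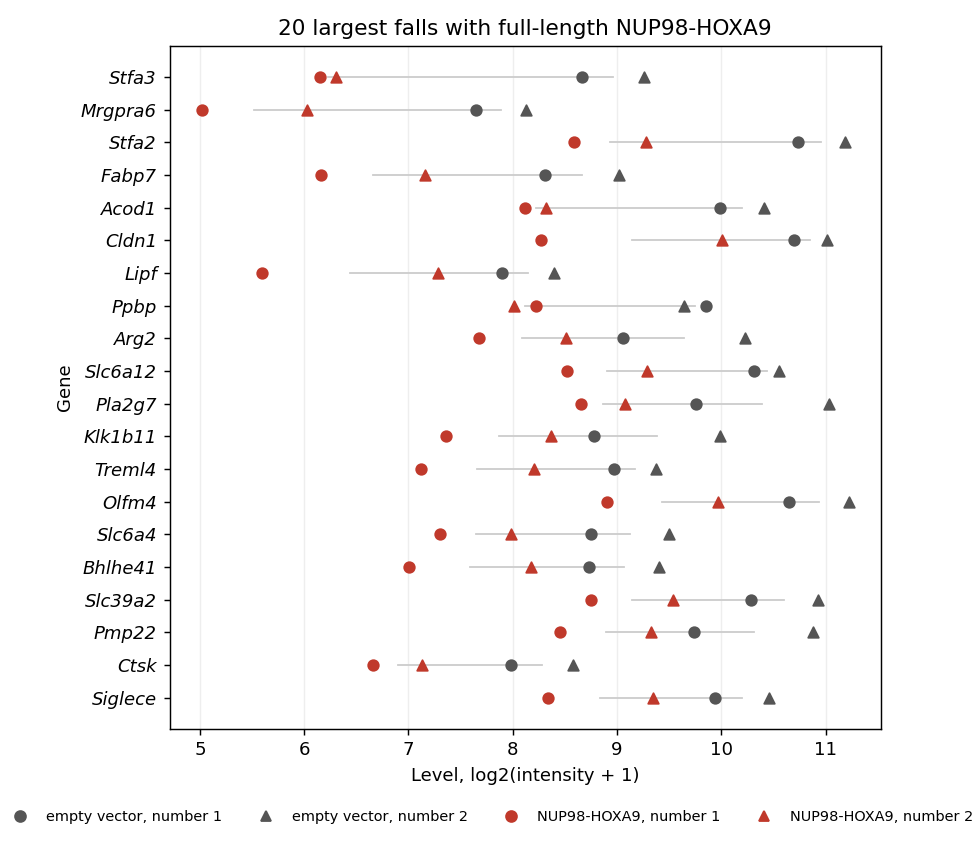
Levels of the 20 largest falls, log2(intensity + 1), drawn as in the plot of rises, from Siglece (-1.36) to Stfa3 (-2.73). Groups do not overlap, as the rule required, and in both groups the array numbered 2 is often the higher.

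The largest fall was that of Stfa3, followed by Mrgpra6 (-2.37) and Stfa2. Stfa3 and Stfa2 are stefin A genes, which encode inhibitors of cysteine proteases and are typical of mouse neutrophils. Stfa3 lay at 8.66 and 9.26 in the empty vector arrays and at 6.15 and 6.31 in the full-length arrays, a difference of -2.73 ± 0.15 (6.65-fold lower, adjusted p = 1.2e-05) that passed in both fits. Stfa2 went from 10.73 and 11.18 to 8.58 and 9.28, a difference of -2.03 (4.08-fold lower) with the pairing alone. Both have near-identical copies, so each probe set may read several of them. In the RefSeq order Csta3, Csta2, Cstdc6, Stfa2 and Stfa3 form an unbroken run of 5 falls of -0.46 to -2.73. Cstb, the related cystatin B, fell by 0.28, and Csta1 was not called.

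Of the 20 largest falls 2 passed in both fits, Stfa3 and Ppbp, as did 14 of the 20 largest rises. Ppbp, a chemokine stored in platelets and made by megakaryocytes, lay at 9.85 and 9.64 without and at 8.22 and 8.01 with the fusion (-1.63 ± 0.14, 3.10-fold, adjusted p = 1.0e-04). Of 11 megakaryocyte and platelet genes 5 fell, among them Vwf (-0.77), Thbs1 (-0.49) and Pf4 (-0.49), and 1 rose. Myof, a membrane repair protein, and Anpep, the myeloid surface peptidase CD13, also passed in both fits: Myof went from 9.59 and 9.72 to 8.53 and 8.66 (-1.06), and Anpep from 10.58 and 10.75 to 9.66 and 9.51 (-1.08).

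Fabp7, a fatty acid-binding protein, went from 8.31 and 9.02 to 6.16 and 7.16 (-2.0). Acod1, which makes the macrophage metabolite itaconate, went from 9.99 and 10.41 to 8.12 and 8.32 (-1.98). Cldn1, a tight-junction protein, lay at 10.70 and 11.01 without and at 8.27 and 10.01 with the fusion (-1.71). Its difference was -2.43 within number 1 and -1.0 within number 2. Others of the 20 were the arginase Arg2 (-1.55), the serotonin transporter Slc6a4 (-1.48), the betaine and GABA transporter Slc6a12 (-1.53), the zinc transporter Slc39a2 (-1.46), the lipase Lipf (-1.71), the myelin protein Pmp22 (-1.42), the repressor Bhlhe41 (-1.47) and the TREM-like receptor Treml4 (-1.51). Mrgpra6 (-2.37) and Klk1b11 (-1.52) belong to families of close copies, so their probe sets may read more than 1 gene. Of the 20 falls 18 were higher in number 2 and 0 were lower.

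Mast cell and basophil genes gave 8 falls and 1 rise of 22. Besides Mrgpra6, Il6 and Fcer1a, they included Gzmb (-0.84), a granule protease shared with cytotoxic cells, while Ms4a2, the IgE receptor beta chain, rose by 0.48. Of 30 cytokine and growth factor receptors 9 fell and 0 rose, led by Il7r (-1.01), Il17ra (-0.92) and Tgfbr2 (-0.64). S100 and annexin genes gave 6 falls of 21 (Anxa1 -0.86, Anxa4 -0.69), integrins and adhesion molecules 7 of 33 (Cd9 -0.69, Cd44 -0.57, Itgb2 -0.37), complement genes 4 of 18 (C5ar1 -0.79, C3ar1 -0.75) and Schlafen genes 3 of 8 (Slfn4 -1.15, Slfn1 -1.03), with 0 rises in each. All called S100, annexin, complement and Schlafen genes were also higher in number 2, as were 5 of the 7 integrin and adhesion falls. The part of this in the falls was not tested. Arrays of Slfn1 overlapped, at 7.89 and 9.40 without and at 7.18 and 8.06 with the fusion. Erythroid genes gave 3 falls (Rhag -0.79 most) and 1 rise (Car2, 0.78) of 13. Stromal and endothelial genes gave 3 rises and 1 fall of 17, among them Emcn (0.32) and Lepr (0.46).

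A few surface families split. Adhesion G protein-coupled receptors gave 3 rises (Adgrl4, Adgrg6 and Adgrg7, 0.64, 0.64 and 0.63) and 1 fall of 22, the fall being Adgrl2 at -1.18. All 8 probe sets of Adgrl2 were lower, by -0.39 to -1.20. MS4A membrane proteins gave 2 rises, led by Ms4a4c (0.92), and 1 fall (Ms4a7, -0.69) of 15. Of 24 RGS and RasGEF genes, Rasgrp3 rose by 0.40 and Rgs1 fell by 1.18.

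Growth and chromatin genes were mostly uncalled. Of 32 cell cycle genes 0 rose and 2 fell, Ccnd1 (-0.55) and E2f2 (-0.49), and Mki67, a proliferation marker, differed by -0.20 without passing. Ribosome biogenesis genes had a median of 0.20, beside 0.02 over all genes. Of these, 2 of 25 were called higher (Wdr12, 0.42, and Nop56, 0.31), and 21 of the 25 were lower in number 2. Of 26 genes of MLL complexes, nuclear export and fusion-associated chromatin factors 1 rose (Dpy30, 0.25). Of 26 immediate-early genes 5 fell, among them Klf6 (-0.62), and the list median was 0.15 within number 1 and -0.50 within number 2.

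**Figure D4:**
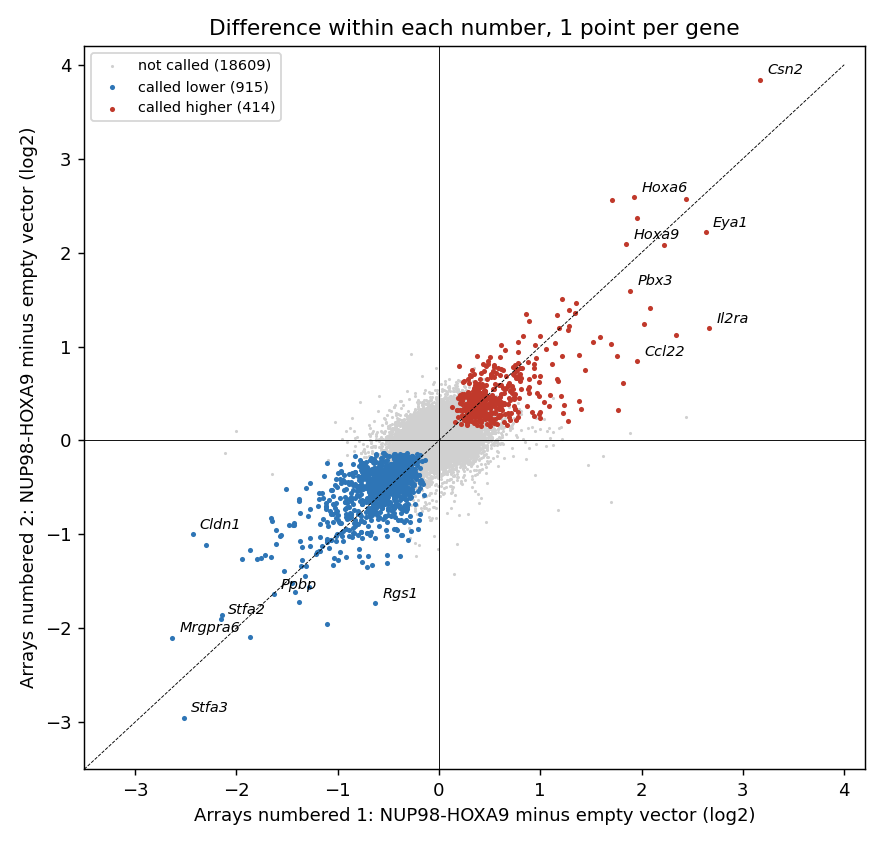
Difference between full length and empty vector (log2) in the arrays numbered 1 (horizontal) and numbered 2 (vertical), 1 point per gene, with called rises in red, called falls in blue and the dashed line marking equality. Csn2 stands farthest out among the rises and Stfa3 among the falls, while Il2ra and Ccl22 lie nearer the horizontal axis.

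The size of the calls was mostly small. Of the 414 rises 36 were at least 2-fold, with a median difference of 0.46, and of the 915 falls 69 were, with a median of -0.50. Arrays of the groups did not overlap for 399 rises and 820 falls and overlapped for 15 and 95. With 2 arrays per group this is common: of all 19938 genes, 4629 had both full-length arrays higher and 3124 both lower. Calls and overlap also rest on the same values. Median differences of the rises were 0.48 in number 1 and 0.44 in number 2, and those of the falls -0.52 and -0.47; the calling fixes this agreement in direction. In the empty vector arrays the median level was 9.55 for genes that fell, 8.53 for those that rose and 6.69 for all genes. In the full-length arrays the order of falls and rises turned, at 8.94 and 9.08. Both levels enter the difference used for the calls, so the calling itself shapes this order.

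Called genes also lay next to each other in the genome. Runs of at least 3 neighbours called the same way numbered 13, of which 3 rose. Besides the Hoxa and stefin runs, Cd200r1, Cd200r4, Cd200r2 and Cd200r3, inhibitory and activating receptor genes, fell by -0.57 to -1.03, and the Slfn2, Slfn1 and Slfn4 run by -0.36 to -1.15. Ddt, Gstt3 and Gstt1, which include glutathione transferases, rose by 0.57 to 0.91, and Rasgrp3, Fam98a and Crim1 by 0.32 to 1.14. Families of copies such as Cd200r and Slfn may share probe sets.

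MicroRNA genes, which the probe sets read as gene or precursor and not as the mature form, gave 1 rise and 2 falls of 287 measured. The sequences are shown for Mir196b, which lies within the Hoxa cluster, and Mir15a, the larger fall, with the seed (bases 2 to 8) in capitals, from RefSeq's GRCm38.p6 annotation.
mmu-miR-196b-5p (chr6:52230129-52230150, - strand): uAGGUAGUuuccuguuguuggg
mmu-miR-15a-5p (chr14:61632075-61632096, - strand): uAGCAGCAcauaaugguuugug
Mir15a lay at 7.19 and 6.58 without and at 6.55 and 5.98 with the fusion, a difference of -0.62 ± 0.11 that passed with the pairing alone. Mir196b differed by 0.19 without passing (adjusted p = 0.18), beside the rises of the genes beside it, Hoxa9 and Hoxa10.

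The mutants were set beside the full-length fusion to see where its named genes stood in them, and these comparisons use the same full-length arrays. Between full length and delFG1 17 genes differed (0.0853%), and between full length and delFG2 97 (0.487%). Among the 20 largest rises 3 were higher with full length than delFG1 and 1 was lower; 10 were higher than with delFG2. Among the 20 largest falls 0 differed from delFG1 and 11 were lower with full length than with delFG2.

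Eya1, Pbx3 and Hoxa9 were higher with the full-length fusion than with either mutant. Eya1 lay at 6.12 and 6.22 with delFG1 and at 6.11 and 6.24 with delFG2, below both full-length arrays by 2.85 and 2.84 on average. Pbx3 lay at 8.75 and 8.81 with delFG1 and at 8.72 and 8.70 with delFG2, near the 8.75 and 8.65 of the empty vector. Hoxa9 lay between, at 8.40 and 7.93 with delFG1 and at 8.06 and 7.59 with delFG2. Meis1, Mef2c, Csn1s1, Hoxb5, Epha3, Gm5662 and Rasgrp3 were likewise higher with full length than with both mutants.

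The risen genes given next were not lower with delFG1 by the test. Csn2 lay at 12.03 and 12.24 with delFG1, higher than with full length by 1.64 (adjusted p = 0.020), and at 11.15 and 11.01 with delFG2. Hoxa5, Hoxa6, Hoxa7 and Hoxa3 were lower with delFG2 than with full length by 1.58, 1.45, 1.64 and 1.11. Their differences from delFG1 (0.83, 0.83, 0.82 and 0.52) did not pass, with adjusted p of 0.0502, 0.199, 0.066 and 0.776. Both delFG1 arrays of each of these Hoxa genes still lay below both full-length arrays. Stfa3 lay at 6.20 and 6.78 with delFG1 and at 7.35 and 8.27 with delFG2, and Ppbp at 7.72 and 7.78 with delFG1 and at 9.43 and 8.79 with delFG2. For both, full length was lower than delFG2, by 1.58 and 1.0.

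**Figure D5:**
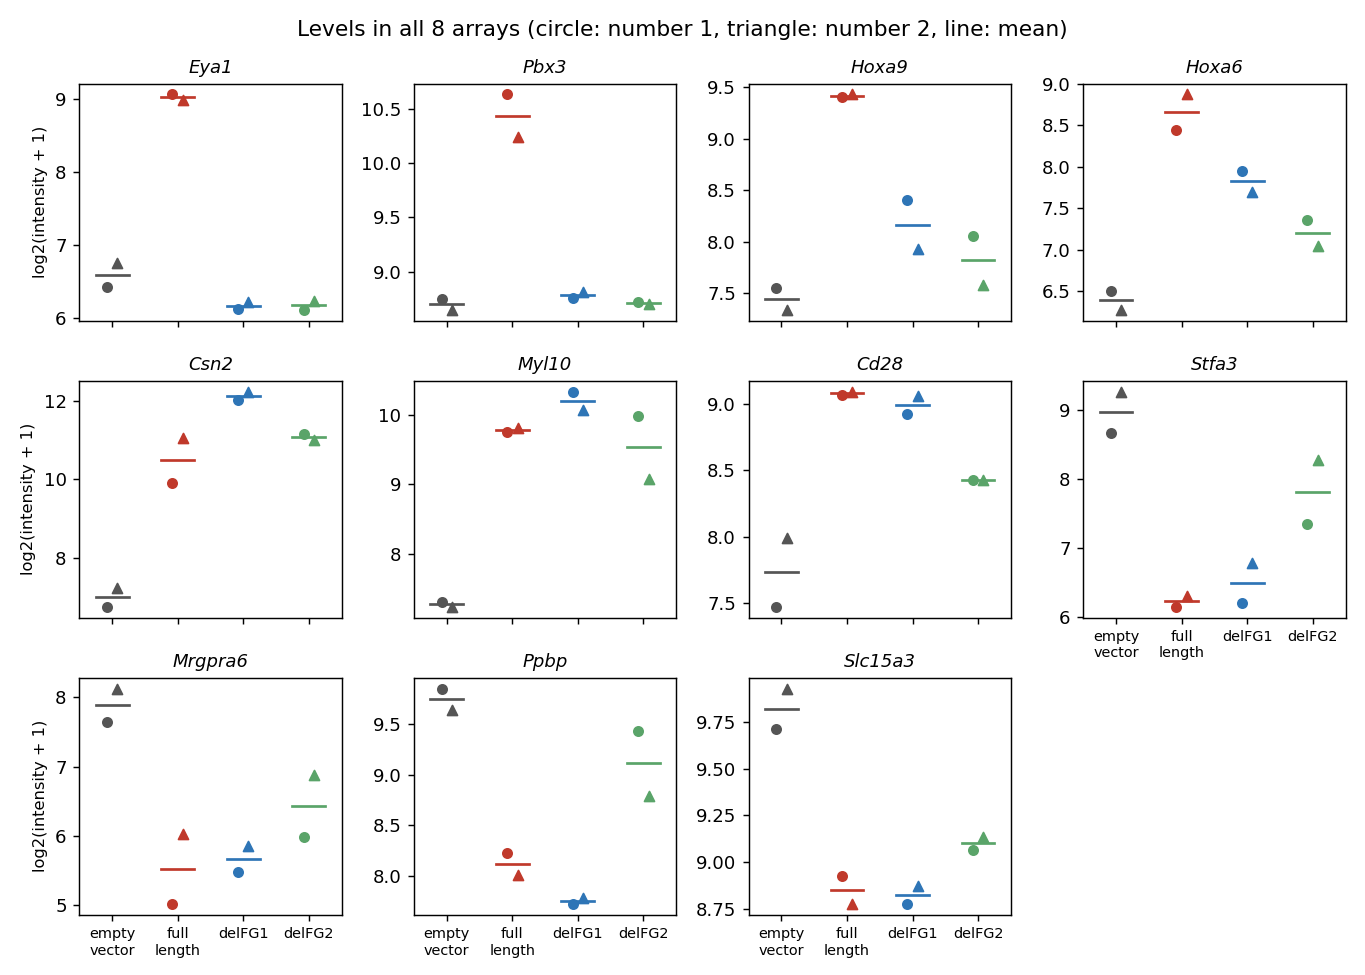
Levels, log2(intensity + 1), of 11 genes in all 8 arrays, with circles for number 1, triangles for number 2 and lines for group means; each panel has its own vertical range. Eya1 and Pbx3 stand highest in the full-length arrays, Csn2 and Myl10 are high in all 3 fusion groups, and Stfa3 and Ppbp are higher with delFG2 than with full length.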

How the data were processed

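Total RNA was purified on Qiagen RNeasy columns and labelled with a GeneChip WT terminal labelling kit, per the labels' protocols. The values are linear intensities from 1 table that the authors deposited; the background correction, summary and normalisation behind them are not given in the sources used. No further normalisation was applied, and log2(intensity + 1) of the deposited values was analysed, with no detection filter, since no detection calls were used. The number of arrays limits the precision.

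Probe sets were named from the platform annotation, and the gene numbers of 21698 of 21789 tested probe sets were found in RefSeq (GRCm38.p6), with 0 symbols changed; 1621 probe sets with several symbols and 5443 with none entered no comparison. A gene is given by its probe set of highest mean over the 8 arrays (Tet1 excepted, where the probe set that passed in both fits is given). With limma 3.58.1 in R 4.3.3, lmFit and eBayes with an intensity trend were run on all 8 arrays, with group means and the replicate number as a block, and p-values were Benjamini-Hochberg adjusted over all tested probe sets, of which 475 were called higher and 965 lower. The script was tested on simulated data.

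The numbers in the titles recur in every group and were treated as pairing the arrays, as the rule that defines this comparison does. Arrays with the same number deviated from their group means together, with r of 0.401 to 0.640 in all 6 pairs of groups. The lowest value, 0.401, was that of full length and empty vector.

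Genes named are the 20 largest rises and 20 largest falls among called genes whose arrays do not overlap (leaving out small RNA genes, predicted genes and the receptors of smell and pheromones), all genes called with and without the block, up to 4 members of each list by smallest p, Nup98 and every measured Hoxa gene. Of these, 1 of the 20 rises is counted but not reported here. Other list members named, microRNA genes and neighbour runs were chosen after their values were seen. The members and gene lists were chosen with earlier results of these data known.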

Additional observations from a re-analysis of the deposited data

Results flagged for a closer look

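Probe sets left out of the comparison because they carry no single gene symbol also differed between the groups, in the same limma fit with the replicate block run over all probe sets of the table. In the full-length arrays, 40 of 5443 with no symbol rose and 68 fell. Of 1621 with several symbols 34 were higher and 33 lower. In the main fit 475 of 21789 probe sets with 1 symbol were called higher and 965 lower. These counts come from fits with unlike adjustment and are not directly comparable. The fit over all probe sets called 314 genes higher and 792 lower, against 414 and 915 in the main fit. The largest differences of probe sets with no symbol were 2.38 (probe set 10450431), 1.99 (10450930), 1.30 (10398039) and -2.11 (10448124) on the log2 scale. Probe sets 10375051 and 10375058, with several symbols, were both lower by -1.64.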

How the results depend on the processing

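Most calls depend on the pairing. Without the replicate block 21 genes were called higher and 5 lower, against 414 and 915 with it. Of the 182 named probe sets 124 lost the call and 27 kept it, and the rest were called in neither fit. Leaving out 1 array at a time gave 84 to 802 genes higher and 279 to 1270 lower; 351 and 367 of the 1329 calls were kept without the full-length arrays numbered 2 and 1. The other alternatives (only the 4 arrays compared, other pseudocounts, quantile or median scaling, a filter on dim probe sets, no intensity trend, robust variances, all probe sets) gave 294 to 523 genes higher and 739 to 1037 lower, and changed the call of at most 17 named probe sets each. No named probe set turned its direction while called. Probe sets of low intensity could not be judged against background, since no detection calls were used.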

Other observations

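Some genes with several probe sets were read more than once. Of 1329 called genes 86 had more than 1 probe set; for 42 of them all probe sets were called the same way, and for 0 was a probe set called the opposite way.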
